A study of Saccharomyces cerevisiae with 44 samples.

Results

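Transcripts of the Ty1 retrotransposon were examined in yeast cells arrested in G1, treated with mating pheromone or not. The Ty1 genes were a fixed list of table rows for the GAG and GAG-POL genes of individual Ty1 copies, 47 of 7127 rows in all. Of these, 25 were GAG-POL rows and 22 were GAG rows, and all 47 passed the filter on low counts in every fit. In the R64 annotation, 44 of them lie in 23 of 31 annotated Ty1 elements on 11 chromosomes, and 21 elements contribute both a GAG and a GAG-POL row. The exceptions are YBL100W-A and YBL100W-B, which lie in a Ty2 element on chromosome II, and YLR035C-A, which lies in no annotated element. YAR009C is annotated as a truncated GAG-POL of 3591 nt.

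The tested strains were ACY02 (ste12::KanMX, here ste12Δ), ACY01 (kar4::KanMX, here kar4Δ) and ACY13 (ime4::KanMX, here ime4Δ), each set against the parent VM05, called WT here. All were MATa, and all, WT included, carried mutations in the markers trp1, ura3, his2 and ade1, lacked the pheromone protease gene bar1, and had lost cln3, cln2 and cln1. Their only G1 cyclin of that family came from leu2:LEU2::GAL-CLN3, which is on in galactose and off in glucose. Cultures at 30 °C were moved from YPGal to YPD for 3 h to arrest them in G1, and the treated ones then received 20 µM alpha-factor for 60 min. Batches 1 and 2 held ste12Δ, kar4Δ and WT, each with 4 libraries after alpha-factor and 4 frozen right after the arrest (0 h). Batch 3 held ime4Δ and WT, each with 2 libraries after alpha-factor and 2 untreated ones whose time the labels do not give. Batch 4 held WT alone, with 2 libraries after alpha-factor and 2 that waited 60 min without it.

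Ty1 is a long terminal repeat retrotransposon that copies itself through an RNA intermediate. Its GAG gene encodes the coat protein of the virus-like particle, and its GAG-POL gene is read through a programmed frameshift to give protease, integrase and reverse transcriptase. Both proteins come from the same full-length RNA, whose transcription in haploid yeast uses the pheromone and filamentation factor Ste12 and its partner Tec1, bound inside the transcribed region. Kar4 is a pheromone-induced partner of Ste12 at genes of nuclear fusion, and Ime4 is an mRNA methyltransferase.

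A stretch of 40 coding bases in the 21 GAG rows of Ty1 elements took only 3 forms. The forms are shown because rows are grouped by them below, a choice made after the values of the rows had been seen. The motif searched for Ste12 was TGAAAC, the core of the pheromone response element, and that for Tec1 was CATTCT, a core of the Tec1 binding site. Both were searched on both strands of the first 150 coding bases, and do not overlap here. Each lay on the strand opposite to the gene, so that they read GTTTCA and AGAATG in the gene's own direction, in capitals below (bases 96 to 135 of GAG, R64 coordinates, from RefSeq). The first form was found in 11 rows, the second in 8 and the third in 2.
both cores, YPL257W-A, chrXVI:56843-56882, + strand: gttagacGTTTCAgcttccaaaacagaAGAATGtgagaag
Ste12 core alone, YDR098C-A, chrIV:650992-651031, - strand: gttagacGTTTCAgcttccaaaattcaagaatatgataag
Tec1 core alone, YBL005W-A, chrII:221425-221464, + strand: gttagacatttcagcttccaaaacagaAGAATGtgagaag

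The 11 rows with both cores were YAR010C, YDR365W-A, YGR027W-A, YJR026W, YJR028W, YLR157C-A, YLR227W-A, YML040W, YPL257W-A, YPR137C-A and YPR158C-C. The 8 rows with the Ste12 core alone were YDR098C-A, YDR316W-A, YGR038C-A, YML045W-A, YMR051C, YNL054W-A, YNL284C-A and YOR142W-A. YBL005W-A and YMR046C had the Tec1 core alone. GAG-POL starts at the same base as GAG, and there 11 rows of Ty1 elements had both cores, 9 the Ste12 core alone and 2 the Tec1 core alone. YAR009C and YLR035C-A were not placed in a group. YBL100W-A of the Ty2 element held both cores, with the Tec1 core at another place, and 67.4% of its bases matched YPL257W-A. The Ty2-located rows are given apart, and the groups below hold rows of Ty1 elements. Among 5849 other genes, 11.5% held TGAAAC in this window, 9.61% held CATTCT and 0.718% held both. The forms went only in part with the rest of the GAG sequence: identity to YPL257W-A was 98.9% to 100% in the rows with both cores, 91.3% to 99.2% in those with the Ste12 core alone, and 86.8% in those with the Tec1 core alone. The 91.3% was YNL284C-A, which was nearer to YBL005W-A, at 93.0%. The other rows with the Ste12 core alone had at least 98.3% and overlapped with the rows with both cores. The groups were formed after the values of the rows had been seen, so they are described and not tested, and a core in the sequence is a match of letters, not a measured binding site.

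Single copies cannot be read apart with confidence in these data. Of the 47 rows, 23 had no window of 50 bases, the read length, that occurs at 1 place in the genome, and in the median row a window occurred at 26 places. YBL005W-A and YMR046C stood apart, with 0% of their windows at more than 10 places. YNL284C-A had 21.7% there, and the largest share of windows at 1 place of all the rows, 34.5%. How reads that match several copies were shared out is not given in the sources used here, and neither is which Ty1 copies VM05 carries, so values of single rows are those of the deposited table and are uncertain as values of single copies. Rows that share reads are not separate observations, so a count of called rows, in all or by core, is not a count of repeated findings.

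The 36 libraries held 4.25 M to 22.6 M counts (M, mega). The deleted genes matched the labels: STE12 averaged 1.78 CPM in ste12Δ and 200 CPM in WT at 0 h, KAR4 averaged 0.217 CPM in kar4Δ and 394 CPM in WT after alpha-factor, and IME4 averaged 0.425 CPM in ime4Δ and 257 CPM in WT after alpha-factor in batch 3. CPM are counts per mega-count (M) of the library total, after TMM scaling, which sets the bulk of rows level between libraries. Nothing in the labels ties replicates to separate cultures, so p-values measure the spread between these libraries, which may be technical. In bulk RNA, fewer cells of a kind and less RNA per cell cannot be told apart.

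Ty1 rows were abundant in every library. Their sum took 7.42% of the counts in the lowest library, a ste12Δ one at 0 h, 14.2% in the median library and 26.3% in the highest, a kar4Δ one after alpha-factor. The GAG-POL rows took 6.29% to 23.1% and the GAG rows 1.13% to 3.24%. Per kb of row, the mean level over the 36 libraries ran from 326 CPM per kb (YBL100W-B) to 1768 CPM per kb (YNL284C-B) among GAG-POL rows, with a median of 956. Among GAG rows it ran from 81.7 CPM per kb (YDR316W-A) to 2290 CPM per kb (YAR010C), with a median of 516.5, a 28-fold range against 5.42-fold for GAG-POL. Most GAG rows lie inside the GAG-POL row of their element. The levels of both kinds therefore depend on how overlapping reads were counted, which is not given. YMR046C at 1842 and YBL005W-A at 1739 CPM per kb, the rows with the Tec1 core alone, followed YAR010C. Rows with the same GAG sequence still differed: YAR010C had 2290 and YPR137C-A 900 CPM per kb. Both had 0% of their windows at 1 place, so these values cannot be read as levels of different copies. YAR010C lies outside its GAG-POL row YAR009C, and YPR137C-A lies inside YPR137C-B. Whether this placement affected their counts was not tested. No library had fewer than 391 counts of a GAG row or 4746 of a GAG-POL row.

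**Figure D1:**
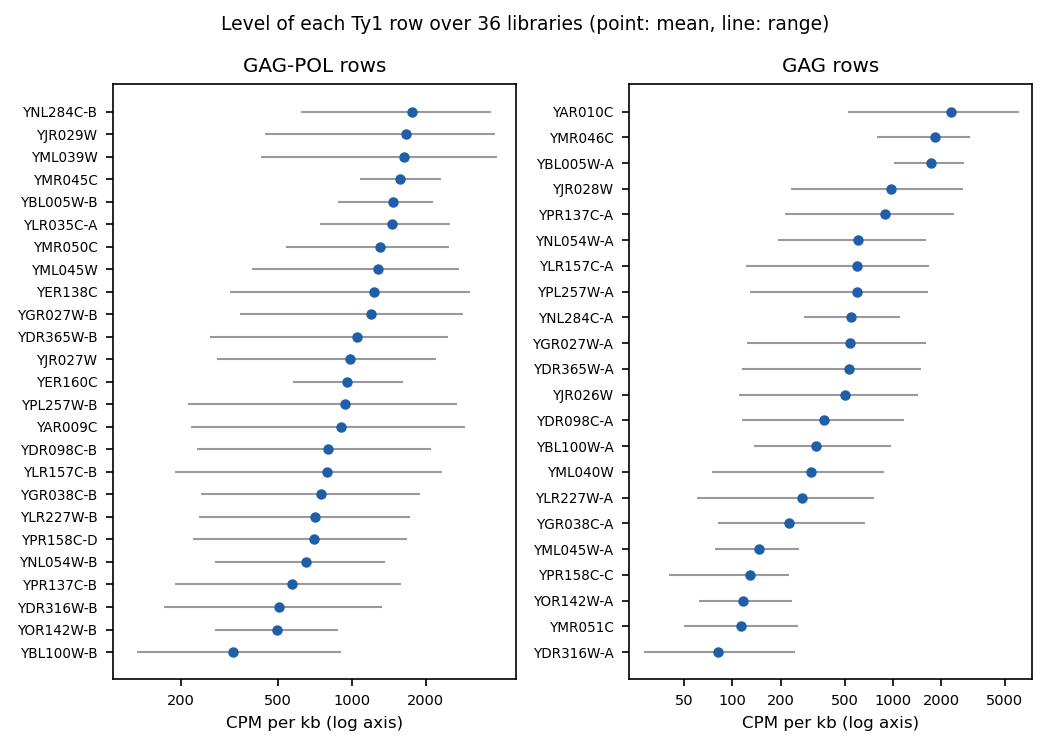
Level of each of the 47 rows in CPM per kb on a log axis, GAG-POL rows on the left and GAG rows on the right, with the mean over 36 libraries as a point and the lowest to highest library as a line. GAG rows spread over 28-fold in mean level, from YDR316W-A at 81.7 to YAR010C at 2290 CPM per kb, and GAG-POL rows over 5.42-fold.

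The Ty1 sum was lowest in ste12Δ and highest in kar4Δ after alpha-factor. At 0 h it was 92651, 93797, 66955 and 63267 CPM in the 4 ste12Δ libraries, against 107595, 138581, 126980 and 170092 CPM in WT. All 4 ste12Δ libraries lay below all 4 WT libraries, and the difference of the mean was -0.78 on the log2 scale (-0.39 in batch 1 and -1.18 in batch 2). After alpha-factor it was 130981, 109841, 79198 and 86174 CPM in ste12Δ, against 209287, 190531, 141321 and 170704 CPM in WT. The groups were again apart, by -0.82 (-0.74 in batch 1 and -0.91 in batch 2). In kar4Δ the sum was 209409, 333168, 206887 and 178826 CPM after alpha-factor and 136116, 207319, 119596 and 138241 CPM at 0 h, which overlapped with each other through replicate 2, the highest library at both times. kar4Δ also overlapped with WT at both times.

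After alpha-factor the Ty1 sum had a higher mean than at 0 h in all 3 strains of batches 1 and 2, with overlapping libraries. The log2 difference of alpha-factor against 0 h was 0.35 in ste12Δ (0.36 in batch 1 and 0.34 in batch 2), 0.62 in kar4Δ (0.65 and 0.58) and 0.39 in WT (0.71 and 0.08). The WT value thus rested mostly on batch 1. In batch 3 the sum averaged 188277 CPM after alpha-factor and 134744 CPM untreated in ime4Δ, and 207210 CPM and 171813 CPM in WT. In batch 4 it averaged 117352 CPM after alpha-factor and 118518 CPM without it, a log2 difference of -0.01. No p is given for the sum, since it is a score over chosen rows.

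**Figure D2:**
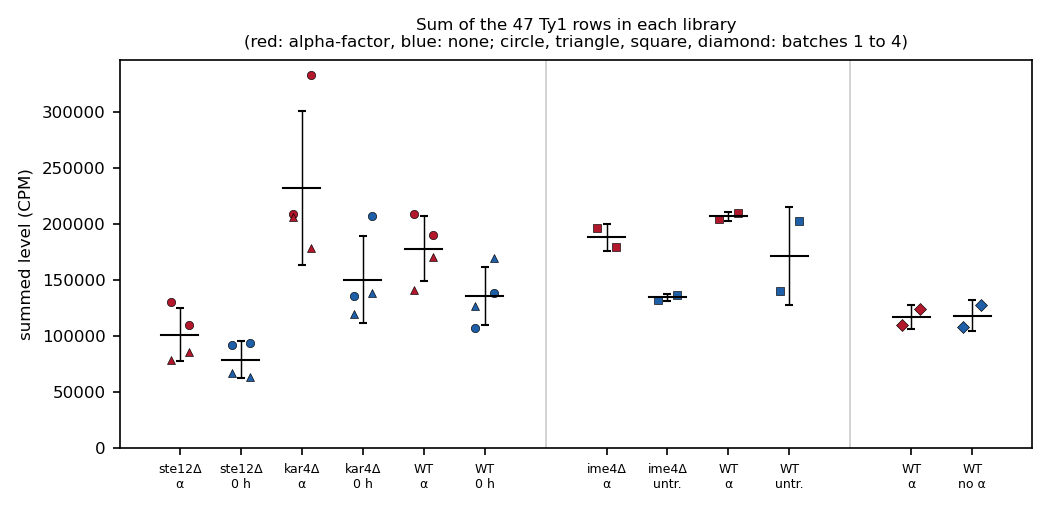
Sum of the 47 Ty1 rows in CPM for each of the 36 libraries, red after alpha-factor and blue without it, with marker shape giving the batch, and the mean and SD of each group in black (n = 4 in batches 1 and 2, n = 2 in batches 3 and 4). The ste12Δ libraries at 0 h, from 63267 to 93797 CPM, lie below every WT library at 0 h, from 107595 CPM.

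The first comparison asked how loss of Ste12 changed Ty1 rows in arrested cells before pheromone. Most rows fell: 35 of 47 were called lower and 2 higher (edgeR, Benjamini-Hochberg adjusted p under 0.05 over 6161 rows), where 11.9% of all rows tested were called lower and 10.6% higher (22.5% either way). The median log2 fold change of the 47 rows was -1.16, against 0.02 over all rows tested. The count was 15 with batch 1 alone, 2 higher and 13 lower. Scaling by library totals instead of TMM shifted the median of all rows to 0.21 and that of the Ty1 rows to -0.97.

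YPL257W-A, a GAG row with both cores, had 297, 331, 204 and 170 CPM in ste12Δ at 0 h, against 658, 884, 911 and 1035 CPM in WT. Every ste12Δ library lay below every WT library, and the log2 fold change was -1.88 (SE 0.20, edgeR adjusted p = 3.08e-07). YJR026W, another GAG row, had 245, 309, 156 and 146 CPM in ste12Δ, against 511, 845, 607 and 1086 CPM in WT, a log2 fold change of -1.93 (SE 0.29, edgeR adjusted p = 3.18e-05). YLR227W-A had 131, 164, 83.0 and 79.7 CPM in ste12Δ, against 272, 449, 331 and 568 CPM in WT, a log2 fold change of -1.92 (SE 0.28, edgeR adjusted p = 2.5e-05). The groups did not overlap for either row. These 3 rows had the largest declines of the 47. YJR026W and YLR227W-A have the same GAG sequence, and 0% of their windows occur at 1 place, so they are not separate observations.

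By core, the median decline at 0 h was largest in the Ty1 rows with both, although the groups overlapped. The rows within a group share reads and are not separate observations. All 11 GAG rows with both cores were called lower, with a median log2 fold change of -1.74 and a range of -1.93 to -1.23, and all 11 such GAG-POL rows were called lower, with a median of -1.46 and a range of -1.57 to -1.09. Of the 8 GAG rows with the Ste12 core alone, 3 were lower and 1 higher, with a median of -0.15 and a range of -1.35 to 0.53. YNL054W-A fell by 1.35 on the log2 scale (edgeR adjusted p = 9.31e-08), YNL284C-A by 0.55 and YGR038C-A by 0.50. The 9 GAG-POL rows with the Ste12 core alone included 7 lower and 1 higher, with a median of -0.78 and a range of -1.22 to 0.46. Neither GAG row with the Tec1 core alone was called, at 0.24 for YMR046C and 0.23 for YBL005W-A, and neither was their GAG-POL row, at 0.08 for YMR045C and 0.16 for YBL005W-B. The Ty2-located rows were lower, YBL100W-A by -0.70 and YBL100W-B by -0.63.

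YOR142W-A, a GAG row with the Ste12 core alone, went the other way. It had 215, 251, 135 and 105 CPM in ste12Δ at 0 h, against 133, 144, 93.3 and 98.4 CPM in WT. The groups overlapped across batches, but each ste12Δ library lay above both WT libraries of its own batch, and the log2 fold change was 0.53 (SE 0.10, edgeR adjusted p = 0.000402). Its GAG-POL partner YOR142W-B had 3574, 3828, 2365 and 1886 CPM in ste12Δ, against 1827, 2092, 2166 and 1912 CPM in WT, a log2 fold change of 0.46 (SE 0.15, edgeR adjusted p = 0.0321). Its batch 2 libraries overlapped, and the call of YOR142W-B was lost in 7 of 16 alternatives. The summed GAG rows gave -1.70 for both cores (-1.20 in batch 1 and -2.21 in batch 2), -0.50 for the Ste12 core alone (-0.23 and -0.77) and 0.24 for the Tec1 core alone (0.26 and 0.22).

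**Figure D3:**
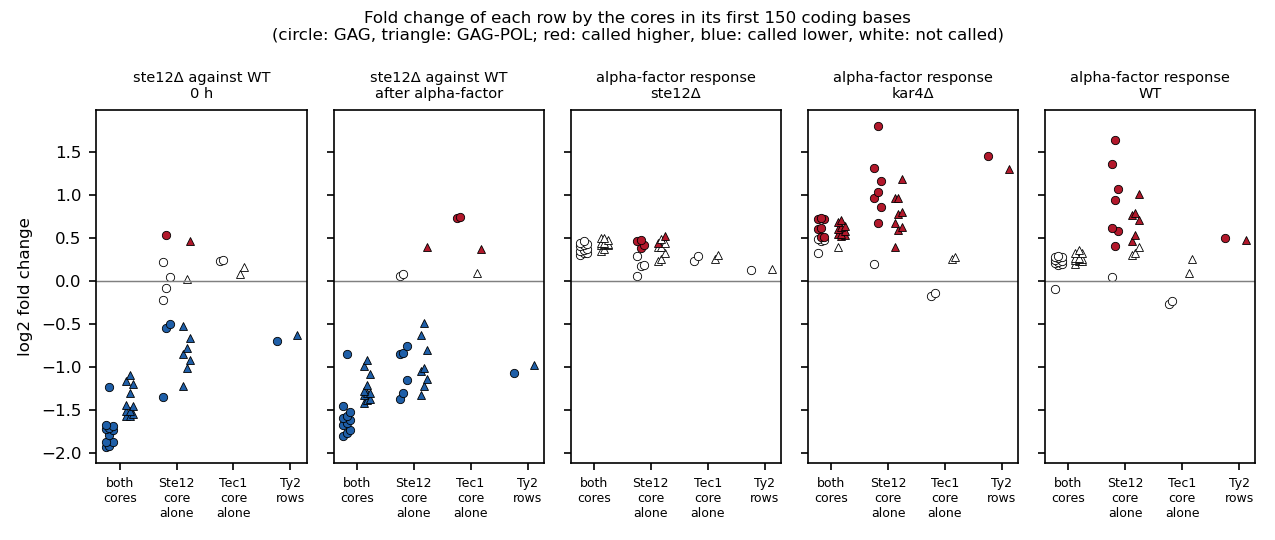
Log2 fold change of each row in 5 comparisons of batches 1 and 2, grouped by the cores in its first 150 coding bases, with circles for GAG and triangles for GAG-POL rows, red for rows called higher, blue for rows called lower and white for rows not called. In ste12Δ against WT at 0 h the Ty1 rows with both cores lie between -1.93 and -1.09 and overlap with those with the Ste12 core alone, which lie between -1.35 and 0.53, and the rows with the Tec1 core alone lie above 0.

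After alpha-factor, the same comparison of ste12Δ with WT called 40 of 47 Ty1 rows lower and 4 higher, where 28.2% of all rows tested were called lower and 30.9% higher (59.1% either way). The median log2 fold change was -1.14, against 0.03 over all rows. With library totals in place of TMM, the median was 0.36 for all rows and -0.80 for the Ty1 rows. YPL257W-A had 462, 387, 251 and 252 CPM in ste12Δ, against 1172, 1180, 987 and 1048 CPM in WT, with no overlap and a log2 fold change of -1.73 (SE 0.20, edgeR adjusted p = 1.4e-07). YLR227W-A and YJR026W, which have the same GAG sequence, were the other leading declines, at -1.80 and -1.77. All 11 GAG rows with both cores were lower, with a median of -1.62 and a range of -1.80 to -0.85. Of the 8 with the Ste12 core alone, 6 were lower, with a median of -0.85 and a range of -1.38 to 0.08, so these groups overlapped too.

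Rows with the Tec1 core alone were higher in ste12Δ than in WT after alpha-factor. YMR046C had 3365, 2876, 3504 and 4023 CPM in ste12Δ, against 2419, 1904, 1580 and 2206 CPM in WT. YBL005W-A had 3066, 2638, 3103 and 3658 CPM in ste12Δ, against 2181, 1720, 1583 and 1985 CPM in WT. For both rows every ste12Δ library lay above every WT library, by 0.75 for YMR046C (SE 0.18, edgeR adjusted p = 0.00102) and 0.73 for YBL005W-A (SE 0.14, edgeR adjusted p = 0.000139). Their sum differed by 0.76 (0.54 in batch 1 and 0.97 in batch 2). YBL005W-B, the GAG-POL row of the second element, was called higher at 0.37 (edgeR adjusted p = 0.0452), and YMR045C, that of the first, was not, at 0.09. YOR142W-B was the other row called higher, with 4644, 3780, 2621 and 2542 CPM in ste12Δ, against 3258, 2756, 2240 and 2005 CPM in WT, a log2 fold change of 0.39 (SE 0.15, edgeR adjusted p = 0.0315), a call lost in 7 of 16 alternatives.

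The transcript of TEC1, Ste12's partner on Ty1, moved with these comparisons. It averaged 38.9 ± 3.92 CPM in ste12Δ and 143 ± 17.1 CPM in WT at 0 h, and 50.7 ± 0.198 CPM in ste12Δ and 376 ± 15.8 CPM in WT after alpha-factor (SD, n = 4 each). The log2 fold change was -1.88 at 0 h (edgeR adjusted p = 2.12e-13) and -2.89 after alpha-factor (edgeR adjusted p = 4.1e-18). ste12Δ cells were thus low in both transcripts, and the part of TEC1 in the result was not tested.

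The next comparison set WT cells after alpha-factor against WT cells frozen at 0 h. This difference is called the response below. The treated cells of batches 1 and 2 had also spent longer in glucose, so time and pheromone changed together. The part of time was not tested, and the same holds for the ste12Δ and kar4Δ responses. In batch 4, where both groups waited equally long, 6 of 47 rows were called higher and 5 lower. The Ty1 sum differed by -0.01 there. In batches 1 and 2, 16 of 47 rows were called higher and 0 lower after alpha-factor, where 29.0% of all rows tested were called higher, 30.0% lower and 59.0% either way, so the share of rows called higher was near that of the table. The median log2 fold change was 0.28, against 0 over all rows. It was 0.11 with library totals, where the median of all rows was -0.17. Without the WT 0 h replicate 4 library the count was 25.

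The rows called higher in WT were mostly those with the Ste12 core alone, a group formed after the values had been seen. YDR098C-A had 1192, 1005, 658 and 729 CPM after alpha-factor, against 250, 307, 238 and 301 CPM at 0 h. The conditions did not overlap, and the log2 fold change was 1.64 (SE 0.16, edgeR adjusted p = 9.54e-09). YMR051C had 340, 292, 190 and 206 CPM after alpha-factor, against 94.2, 113, 84.8 and 93.1 CPM at 0 h, a log2 fold change of 1.36 (SE 0.12, edgeR adjusted p = 2.4e-09). YGR038C-A had 666, 589, 342 and 393 CPM after alpha-factor, against 234, 277, 193 and 213 CPM at 0 h, a log2 fold change of 1.07 (SE 0.12, edgeR adjusted p = 4.63e-08). In each of these rows the treated libraries of batch 1 were higher than those of batch 2. Of the GAG rows with the Ste12 core alone, 7 of 8 were called higher, where 29.0% of all rows tested were. Their median was 0.78, and YML045W-A, at 0.04, was not called. These rows share reads and are not separate observations. Of the GAG-POL rows with the Ste12 core alone, 6 of 9 were called higher, with a median of 0.54.

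No GAG row of a Ty1 element with both cores was called in the WT response, where 59.0% of all rows tested were called. Of the 11, 0 passed edgeR's adjusted threshold and 0 had an unadjusted p under 0.05. Their median log2 fold change was 0.23 and 10 were positive, so the lack of calls does not show that they did not change. None of the 11 GAG-POL rows with both cores passed either, with a median of 0.26. The rows with the Tec1 core alone were not called, at -0.25 in the median of the GAG rows. The summed GAG rows gave 0.29 for both cores (0.57 in batch 1 and 0.01 in batch 2), 0.79 for the Ste12 core alone (1.03 and 0.55) and -0.26 for the Tec1 core alone. Treated libraries lay above all untreated ones for the Ste12 core alone. Both Ty2-located rows were higher, YBL100W-A at 0.50 and YBL100W-B at 0.48, and so was YLR035C-A, at 0.64.

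In ste12Δ few rows passed the test of the pheromone response. Of 47 rows, 6 were called higher and 0 lower, where 17.6% of all rows tested were called higher and 14.6% lower (32.2% either way), so the share was not above that of the table. The median log2 fold change was 0.39, against 0.01 over all rows. All 47 fold changes were positive and 18 rows had an unadjusted edgeR p under 0.05. In WT 44 were positive and 17 had such a p, with a median of 0.28. That fewer rows were called in ste12Δ than in WT thus does not show a smaller rise. YDR098C-A had 530, 397, 263 and 215 CPM after alpha-factor and 357, 295, 201 and 151 CPM at 0 h in ste12Δ. The conditions overlapped across batches and not within them, with a log2 fold change of 0.48 (SE 0.16, edgeR adjusted p = 0.0252). YDR098C-B, its GAG-POL partner, was at 0.52 (SE 0.20, edgeR adjusted p = 0.0478) and YNL054W-A at 0.46 (SE 0.13, edgeR adjusted p = 0.0124). All 6 rows had the Ste12 core alone, and libraries overlapped in each of them. The count was 2 without the ste12Δ 0 h replicate 2 library, 2 without replicate 4 of the same group and 0 without the ste12Δ alpha-factor replicate 1 library. It was 10 with DESeq2, 0 with batch 1 alone and 11 with batch 2 alone.

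The difference between the ste12Δ and WT responses was tested directly. It was called in 5 of 47 rows, all with a smaller response in ste12Δ, where 17.6% of all rows tested had a called smaller and 18.3% a called larger response (35.9% either way), so the number of rows called was not above that of the table. The difference was positive in 31 of the 47 rows, with a median of 0.11 against 0.01 over all rows. The median was -0.24 in batch 1 alone and 0.38 in batch 2 alone, and with library totals 0.26, where that of all rows was 0.16. The 5 were all GAG rows with the Ste12 core alone: YDR098C-A at -1.16 (SE 0.22, edgeR adjusted p = 0.000307), YMR051C at -1.07 (SE 0.17, edgeR adjusted p = 3.77e-05), YDR316W-A at -0.76 (SE 0.19, edgeR adjusted p = 0.0028), YGR038C-A at -0.65 and YOR142W-A at -0.45. In ste12Δ, YMR051C had 208, 147, 109 and 106 CPM after alpha-factor and 157, 134, 101 and 74.9 CPM at 0 h, against 190 to 340 CPM and 84.8 to 113 CPM in WT. YDR316W-A had 152, 128, 60.3 and 55.3 CPM after alpha-factor and 129, 114, 61.7 and 43.3 CPM at 0 h in ste12Δ, against 250, 214, 110 and 117 CPM and 91.2, 116, 67.0 and 70.0 CPM in WT. In ste12Δ the conditions overlapped for both rows. No row with both cores was called, with a median of 0.14 over the 11 GAG rows, and the count was 2 with no batch term.

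Loss of Kar4 left Ty1 rows without a called change at 0 h. By edgeR, 0 of 47 rows were called and 0 had an unadjusted p under 0.05, and DESeq2 called 0, where 12.0% of all rows tested were called, 5.84% higher and 6.14% lower. The log2 fold changes ran from -0.20 to 0.42 with a median of 0.09, against 0 over all rows. A difference was not detectable with 4 libraries a group, which does not show that the strains were equal.

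After alpha-factor, 10 of 47 rows were called higher and 0 lower in kar4Δ against WT, where 16.8% of all rows tested were called higher and 21.1% lower (37.9% either way), so the share called higher was near that of the table. The median log2 fold change was 0.36, against -0.03 over all rows. The rows with the largest change were the pair in the Ty2 element. YBL100W-A had 904, 1283, 1034 and 1002 CPM in kar4Δ, against 589, 460, 450 and 417 CPM in WT. YBL100W-B had 3547, 4792, 3549 and 3676 CPM in kar4Δ, against 2306, 1760, 1898 and 1596 CPM in WT. Every kar4Δ library lay above every WT library for both, by 1.14 for YBL100W-A (SE 0.13, edgeR adjusted p = 2.15e-07) and 1.04 for YBL100W-B (SE 0.15, edgeR adjusted p = 4.57e-06). The groups overlapped in the other 8 called rows, among them YAR009C, at 0.81 (SE 0.32, edgeR adjusted p = 0.0483), whose kar4Δ libraries had 4369, 10381, 6062 and 3531 CPM, against 3897, 5056, 2103 and 3049 CPM in WT. The call of YAR009C was lost in 10 of 16 alternatives. The count of 10 was 6, 5 and 5 without WT alpha-factor replicates 1, 2 and 3, and 16, 5 and 6 without kar4Δ alpha-factor replicates 1, 2 and 3. It was 2 with batch 1 alone and 3 with no batch term.

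The pheromone response in kar4Δ was called higher in 36 of 47 rows and lower in 0, where 33.0% of all rows tested were called higher and 32.8% lower (65.9% either way), and the median was 0.62, against 0 over all rows. With batch 1 alone the count was 19, and with library totals the median was 0.38 where that of all rows was -0.23. YDR098C-A had 1274, 1559, 714 and 931 CPM after alpha-factor, against 354, 427, 252 and 238 CPM at 0 h in kar4Δ, with no overlap and a log2 fold change of 1.80 (SE 0.16, edgeR adjusted p = 9.64e-10). YBL100W-A had the CPM given above after alpha-factor, against 348, 427, 397 and 362 CPM at 0 h, a log2 fold change of 1.46 (SE 0.13, edgeR adjusted p = 7.91e-10). YGR038C-A had 708, 887, 435 and 470 CPM after alpha-factor, against 297, 299, 196 and 201 CPM at 0 h, a log2 fold change of 1.31 (SE 0.12, edgeR adjusted p = 8.37e-10). By core, 7 of 11 GAG rows with both cores were called higher, with a median of 0.51, and 7 of 8 with the Ste12 core alone, with a median of 1.01. The GAG rows with the Tec1 core alone were not called, with a median of -0.16.

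That more rows passed in kar4Δ than in WT does not show a larger response, and the test of the difference called 3 of 47 rows, all higher, where 8.72% of all rows tested were called higher and 10.2% lower (18.9% either way), so the number of rows called was near that of the table. They were YBL100W-A at 0.96 (SE 0.18, edgeR adjusted p = 0.000409), YBL100W-B at 0.82 (SE 0.20, edgeR adjusted p = 0.00562) and YNL054W-A at 0.56 (SE 0.19, edgeR adjusted p = 0.0418). YNL054W-A had 1457, 2129, 1332 and 1262 CPM after alpha-factor and 759, 1065, 634 and 692 CPM at 0 h in kar4Δ, against 1269, 1184, 930 and 1019 CPM and 719, 877, 761 and 892 CPM in WT. Its call was lost in 12 of 24 alternatives, and those of YBL100W-A and YBL100W-B in 1 of 24 each. The count was 0 with batch 1 alone and 8 with batch 2 alone. The kar4Δ and ste12Δ comparisons share the WT libraries.

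The 18 unlisted rows of annotated Ty2 elements had values like those of the listed pair. Their sum was 67222, 91817, 69011 and 69045 CPM in kar4Δ after alpha-factor, against 43597, 32846, 31661 and 28442 CPM in WT, a log2 difference of 1.13, and that of the listed pair differed by 1.06. For both sums every kar4Δ library lay above every WT library after alpha-factor. Ty2 copies share reads, so both sums may hold the same molecules. The 4 rows of Ty3, a retrotransposon of another family that is known to respond to pheromone, moved on another scale: their sum differed by 4.03 between alpha-factor and 0 h in kar4Δ, 0.24 in ste12Δ and 4.04 in WT. In ste12Δ against WT it differed by -4.58 at 0 h and -8.38 after alpha-factor, and in kar4Δ against WT after alpha-factor by -1.05.

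**Figure D4:**
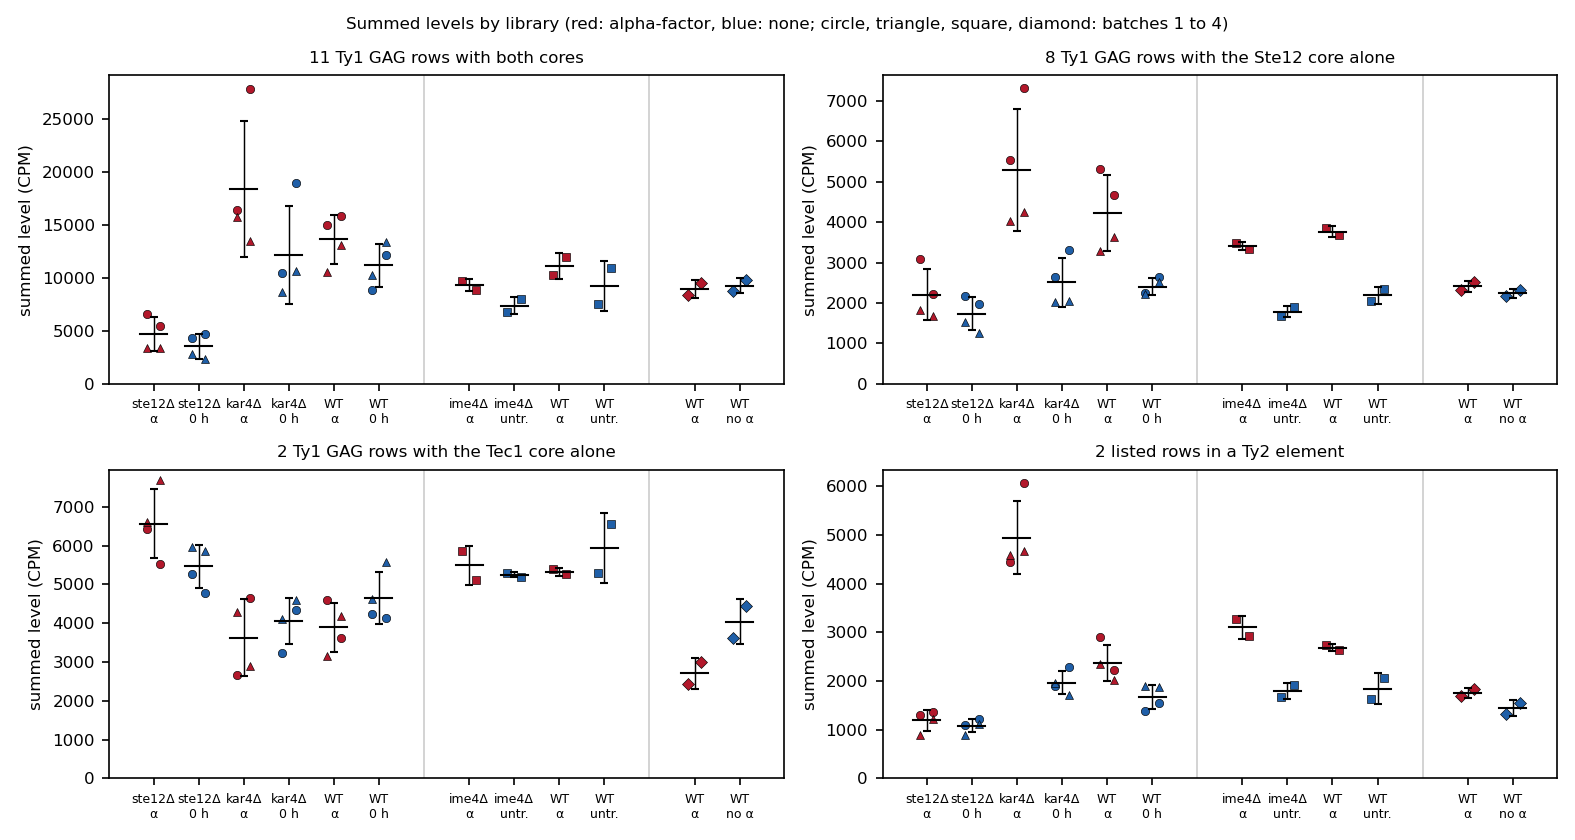
Summed level in CPM of the GAG rows with both cores, with the Ste12 core alone and with the Tec1 core alone, and of the Ty2-located rows, in each library, red after alpha-factor and blue without it, with marker shape for the batch and mean and SD in black (n = 4 in batches 1 and 2, n = 2 in batches 3 and 4). In ste12Δ after alpha-factor the rows with both cores lie between 3335 and 6587 CPM, below every WT library, and those with the Tec1 core alone between 5513 and 7681 CPM, above every treated WT library of the same batches.

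In batch 3, with 2 libraries per group, rows with the Ste12 core alone had the highest called fold changes after alpha-factor in ime4Δ and in WT. In ime4Δ, 15 of 47 rows were called higher and 0 lower after alpha-factor, where 27.6% of all rows tested were called higher and 27.9% lower (55.5% either way). In WT 14 were called higher and 0 lower, where 27.4% of all rows tested were called higher and 27.7% lower (55.1% either way). Both shares were near that of the table. YDR098C-A had 740 and 688 CPM after alpha-factor and 208 and 221 CPM untreated in ime4Δ, against 776 and 763 CPM and 195 and 249 CPM in WT, with log2 fold changes of 1.74 and 1.79 (edgeR adjusted p = 4.08e-06 and 3.67e-06). Of the 8 GAG rows with the Ste12 core alone, 7 were called higher in each strain, with medians of 0.99 in ime4Δ and 0.89 in WT. No row of a Ty1 element with both cores was called in either, with GAG medians of 0.34 in ime4Δ and 0.25 in WT. Summed, these GAG rows had 8882 and 9676 CPM treated and 6789 and 7963 CPM untreated in ime4Δ. In WT they had 10247 and 11969 CPM treated and 7534 and 10884 CPM untreated, and overlapped through the higher untreated library. With 2 libraries per group, the lack of calls does not show that rows with both cores did not change. Both Ty2-located rows were called higher in each strain. With library totals, the median of all rows was -0.29 and that of the Ty1 rows 0.14 in the ime4Δ response, and -0.15 and 0.12 in the WT response. The ime4Δ count was 27 with DESeq2, and the WT count was 9 without its alpha-factor replicate 1 library and 38 without its untreated replicate 2 library.

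Between ime4Δ and WT directly, edgeR called 0 of 47 rows untreated and 0 after alpha-factor, and DESeq2 called 0 in both, where 0.0325% and 0.227% of all rows tested were called. Untreated, all 47 fold changes were negative, from -0.75 to -0.04 with a median of -0.33, and 10 rows had an unadjusted p under 0.05. The 47 rows share reads and libraries and are not 47 separate observations: the sum was 132465 and 137024 CPM in ime4Δ, against 140798 and 202828 CPM in WT, and without the higher WT library the log2 difference of the sum was -0.06 in place of -0.33. After alpha-factor the median was -0.16 and 2 rows had an unadjusted p under 0.05. The difference between the responses was called in 0 rows by edgeR and DESeq2, with 0 rows at an unadjusted p under 0.05 and a median of 0.19, where 0.0162% of all rows tested were called.

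Batch 4 compared WT cells that spent the same 60 min with or without alpha-factor. There 6 of 47 rows were called higher and 5 lower, where 28.9% of all rows tested were called in each direction and 57.8% in either, and the median was -0.03, against -0.01 over all rows. YDR098C-A had 335 and 347 CPM with alpha-factor, against 182 and 184 CPM without, with no overlap and a log2 fold change of 0.90 (SE 0.05, edgeR adjusted p = 4e-06). YGR038C-A had 249 and 267 CPM with alpha-factor, against 156 and 153 CPM without, a log2 fold change of 0.74. YDR316W-A, YMR051C, YDR098C-B and YBL100W-B were the other rows called higher, at 0.27 to 0.49. The GAG rows with the Tec1 core alone were called lower, YMR046C by -0.59 and YBL005W-A by -0.57, as were YOR142W-A by -0.43, YOR142W-B by -0.49 and YML045W-A by -0.34. Of the 8 GAG rows with the Ste12 core alone, 4 were called higher and 2 lower, YOR142W-A and YML045W-A, with a median of 0.12. The sum of those 8 rows differed by 0.11, with overlapping libraries. No row of a Ty1 element with both cores was called, with a GAG median of -0.08. The count of 11 was 7 without either alpha-factor library. The untreated WT cells of batches 1 and 2 were frozen before, not after, those 60 min, and the fold changes of the batches were not compared by a test.

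Genes known to act on Ty1 were read from lists chosen with earlier results of these data known. Of 21 transcription activators of Ty1, 3 were called higher and 3 lower in ste12Δ against WT at 0 h, with a median of 0.05. Of all rows tested, 10.6% were called higher and 11.9% lower there. The 3 lower were STE12 itself, TEC1 and TYE7, a basic helix-loop-helix activator, at -0.46, and the 3 higher were SNF2 and SWI1 of the SWI/SNF chromatin remodeller, at 0.28 and 0.31, and SPT8 of the SAGA complex, at 0.35. In the WT response, 5 were higher and 8 lower, with a median of -0.13, where 29.0% of all rows tested were called higher and 30.0% lower. TEC1 rose by 1.38 and TEA1, a Ty1 enhancer activator, by 1.11, and MGA2, a membrane-bound activator, fell by 1.43. In kar4Δ against WT after alpha-factor, 6 were higher and 3 lower, where 16.8% of all rows tested were called higher and 21.1% lower. STE12 was at 1.03 (edgeR adjusted p = 0.00446), TEC1 at 0.28 and TEA1 at -1.28.

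Of 6 kinases and repressors that regulate Ste12 and Tec1, 5 were higher and 1 lower in the WT response, against 29.0% and 30.0% of all rows tested. DIG2, a repressor of Ste12, rose by 3.53, the kinase genes FUS3 by 1.35 and KSS1 by 1.04, and DIG1, the other repressor, fell by 0.27. In ste12Δ against WT after alpha-factor, 1 was higher and 3 lower, against 30.9% and 28.2% of all rows tested. DIG2 was at -3.24, FUS3 at -2.70 and KSS1 at -1.20. In kar4Δ against WT after alpha-factor, FUS3 was higher at 0.93 and DIG1 at 0.85, and DIG2 was lower at -0.32 and KSS1 at -0.28. Of 10 genes known to restrict Ty1, FUS3 among them, 7 were higher and 0 lower in that comparison, against 16.8% and 21.1% of all rows tested. Their median was 0.27, with RTT107, a scaffold of DNA repair, at 0.70 and RAD27, a flap endonuclease, at 0.66. Of 12 cofactors of Ty1 RNA, particles and integration, 0 were higher and 8 lower in the WT response, against 29.0% and 30.0% of all rows tested. Their median was -0.24. Among the lower ones were XRN1, the main cytoplasmic exonuclease, at -0.27 and RPC53, a subunit of RNA polymerase III, at -0.58. The counts of called list genes were not tested against these shares of all rows.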

How the data were processed

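RNA was sequenced from yeast cultures, in 44 deposited columns, with 50-nt reads. Ribosomal RNA was removed and the libraries were stranded, per the labels' protocols. The authors deposited expected counts per row, not scaled, of which 24.5% are whole numbers. The submitters' processing notes name STAR, featureCounts and sacCer3; settings for strand, overlaps and reads with several places are not given in the sources used here. In batch 3, 8 pairs of columns agreed within sampling noise (chi-square per degree of freedom 0.444 to 0.701, and at least 5.29 in the 30 other pairs), so each pair was counted once as its mean, leaving 36 libraries. Library totals ranged over 4.25 to 15.6 M (batch 1), 8.27 to 12.7 M (batch 2), 9.90 to 17.0 M (batch 3) and 14.8 to 22.6 M (batch 4).

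Counts were rounded and tested with edgeR 4.0.16 (R 4.3.3, limma 3.58.1): filterByExpr (minimum count 10, minimum total 15), TMM (trimmed mean of M-values) scaling, glmQLFit and glmQLFTest, with Benjamini-Hochberg adjustment over all rows tested and a threshold of 0.05. A single fit took batches 1 and 2 (24 libraries, batch additive), and batch 3 (8) and batch 4 (4) had fits of their own. The scripts were tested on simulated data. The members and lists were chosen with earlier results of these data known. Rows were named by rule: the up to 3 largest called changes in each direction of each comparison of batches 1 and 2 (mean of at least 1 log2 CPM), the highest and lowest row of each kind, the deleted genes and list members; other rows named were chosen after their values were seen. Alternatives were DESeq2 1.42.0, library totals, scaling without transposon, rRNA and tRNA rows, no filter, a replicate block, no batch term, single batches, the columns of batch 3 kept apart or summed, other sums, and each library left out. Exchanged replicate numbers in batch 3, sums over other rows and single-batch sums were chosen after seeing the data. Positions are in R64, which is sacCer3.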

Additional observations from a re-analysis of the deposited data

Results flagged for a closer look

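Time in glucose and alpha-factor changed together in the responses compared here. For 8 rows the response differed between a deletion strain and WT by the test of the difference (edgeR, adjusted p under 0.05). In kar4Δ minus WT these were YBL100W-A at 0.96, YBL100W-B at 0.82 and YNL054W-A at 0.56 on the log2 scale. They were 3 of 47 rows, where 18.9% of all rows tested were called either way. The call of YNL054W-A was lost in 12 of 24 alternatives. In ste12Δ minus WT they were YDR098C-A at -1.16, YMR051C at -1.07, YDR316W-A at -0.76, YGR038C-A at -0.65 and YOR142W-A at -0.45. These were 5 of 47 rows, where 35.9% of all rows tested were called either way. Neither count was above the share of the table.

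In 3 of 132 groups of 4 libraries, 1 library stood far from the others. They were YBL100W-A at 180 CPM in ste12Δ after alpha-factor (replicate 3), and YBL100W-B at 4792 CPM and YPL257W-A at 2179 CPM in kar4Δ after alpha-factor (replicate 2). Chance alone marks about 1 in 20 such groups. The kar4Δ replicate 2 libraries were also the highest of their groups for the Ty1 sum, at 333168 CPM after alpha-factor and 207319 CPM at 0 h.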

How the results depend on the processing

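Apart from leaving out libraries, the Ty1 sum moved by less than its spread in 101 checks and by more in 7, and no named row changed direction. Small sums did change sign within their spread, such as kar4Δ against WT at 0 h (0.46 in batch 1 and -0.19 in batch 2) and the response differences of kar4Δ (-0.06 and 0.50) and ste12Δ (-0.35 and 0.26). The WT response of the sum was 0.71 in batch 1 and 0.08 in batch 2, and ste12Δ against WT at 0 h was -0.39 and -1.18. With library totals, ste12Δ against WT after alpha-factor was -0.49 and the ime4Δ response 0.20, which was 0.35 from GAG rows alone.

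Called rows moved over 1.5 times as follows. With batch 1 alone the counts were 0 (ste12Δ response), 2 (kar4Δ against WT after alpha-factor), 19 (kar4Δ response), 15 (ste12Δ against WT at 0 h) and 0 (response difference of kar4Δ), and with batch 2 alone 11 for the ste12Δ response and 8 for the response difference of kar4Δ. With no batch term they were 0 (ste12Δ response), 3 (kar4Δ against WT after alpha-factor) and 2 (response difference of ste12Δ). DESeq2 gave 10 for the ste12Δ and 27 for the ime4Δ response. With 16 columns as replicates batch 3 gave 39 (ime4Δ response), 24 (WT response), 21 (untreated) and 6 (after alpha-factor).

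Same-numbered libraries had correlated deviations of -0.30 to 0.43, above 0 in 15 of 19 comparisons within a batch, and the labels tie no number to a shared culture or day. Whether the numbers pair the libraries is not settled by this, and the block was kept as an alternative. It gave 22 against 11 called rows for batch 4 and 4 against 6 for the ste12Δ response, and with exchanged ime4Δ numbers 34 for the ime4Δ response.

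Leaving out 1 library gave these ranges: WT response 14 to 25 (batches 1 and 2), 9 to 38 (batch 3) and 7 to 11 (batch 4), ste12Δ response 0 to 6, and kar4Δ against WT after alpha-factor 5 to 16. Named rows kept their call in 205 checks and lost it in 27, and with 1 library left out kept it in 246 and lost it in 34. Each row had at least 391 counts in every library, and shared reads limit what a row stands for.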
